A study of Mus musculus with 7 samples.

Results

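The mitochondrial respiratory chain and ATP synthase were read through their nuclear subunit genes in bulk RNA-seq of mouse glioblastoma (GBM), the malignant glioma of the brain. The members are the rows of the count table whose symbols start with Ndufa, Ndufb, Ndufc, Ndufs or Ndufv and a digit, Cox4 to Cox8, Atp5 or Uqcr, or that equal *Sdha*, *Sdhb*, *Sdhc*, *Sdhd*, *Cyc1* or *Cycs*. Pseudogene names (-ps) were left out, 6 rows with at most 2 counts in any library. This gave 86 of the 49492 genes of the table, of which 35 were placed in complex I, 4 in complex II, 9 in complex III, 1 as the carrier cytochrome c, 20 in complex IV and 17 in complex V. *Ndufa4* and *Ndufa4l2* carry complex I names and were placed in complex IV, where the *Ndufa4* protein is found.

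The samples were 4 of the NPCTKO model and 3 of the NSCHRas-shp53 model, all labelled as GBM of C57BL/6 mice at 3 months of age. In NPCTKO, tumour suppressor genes including *Trp53* and *Nf1* were inactivated by Cas9 and guide RNAs electroporated in utero into neocortical precursors of the embryo, and GBM cells carrying the EGFP or DsRed reporter were sorted by FACS before RNA isolation. In NSCHRas-shp53, a lentivirus with *Trp53* shRNA and constitutively active human HRAS was delivered to the ventricular-subventricular zone in adult animals, and whole GBM tissue was used without sorting. Model and preparation therefore cannot be told apart in any difference below. *Trp53* is thus targeted in both groups, *Nf1* in NPCTKO, and HRAS is added in NSCHRas-shp53. Whether each sample is a mouse of its own is not given, so p-values measure the spread between these samples, and in bulk RNA fewer cells of a type and less RNA per cell cannot be told apart.

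In the respiratory chain, complex I (NADH dehydrogenase) and complex II (succinate dehydrogenase) pass electrons to ubiquinone, complex III passes them on to cytochrome c, and complex IV (cytochrome c oxidase) passes them to oxygen. The proton gradient built by complexes I, III and IV drives complex V, the ATP synthase. All complexes except complex II combine subunits from the nucleus with subunits encoded in mitochondrial DNA, so their supply depends on both genomes.

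Total counts ranged from 15002873 to 19247326 in NPCTKO and from 17529054 to 19840860 in NSCHRas-shp53, where 3 counts, taken as the floor for counting error, correspond to 0.151 to 0.2 CPM (counts scaled to library size) before TMM scaling, which sets a further factor per library. Within NPCTKO, samples 1 and 2 stood apart from samples 3 and 4, with correlations of log2(CPM + 1) of 0.991 within the first pair, 0.983 within the second and 0.933 to 0.954 between them. The summed CPM of 12 macrophage and microglia markers was 18314, 22602, 457 and 2939 in NPCTKO samples 1 to 4 and 6771, 2379 and 2854 in NSCHRas-shp53 samples 1 to 3, and *P2ry12* had no counts in any library, with 18.5, 27.5, 2.48 and 6.900 FPKM in NPCTKO. The 8 oligodendrocyte precursor markers, of which *Gpr17* and *C1ql1* had no counts in any library, summed to 2500.1 to 5701 CPM in NPCTKO and 518 to 911 CPM in NSCHRas-shp53. As sums, astrocyte and neuron markers went the other way, with 12 astrocyte markers at 250.2 to 748 CPM in NPCTKO and 3178 to 4388 CPM in NSCHRas-shp53 and 15 neuron markers at 124 to 389 CPM in NPCTKO and 1009 to 1202 CPM in NSCHRas-shp53. Not every marker did so, since *S100b*, an astrocyte marker, was at 7.66 to 51.2 CPM in NPCTKO and 3.86 to 30.4 CPM in NSCHRas-shp53. *Gfap*, *Tubb3* and *Nefl* were at 0 counts in all libraries and were read in the FPKM table. *Gfap* was at 19.1 to 86.9 FPKM in NPCTKO and 716 to 1096 FPKM in NSCHRas-shp53, and *Nefl* at 0.082 to 4.39 and 29.2 to 139 FPKM. For *Tubb3* the groups overlapped, at 72.6, 61.7, 68.2 and 20.4 FPKM in NPCTKO samples 1 to 4 and 46.1, 81.1 and 47.7 FPKM in NSCHRas-shp53 samples 1 to 3.

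The clearest structure among the subunit genes lay between libraries of the same model. Of the 80 members that passed the filter on low counts, 69 were higher in both NPCTKO samples 1 and 2 than in both samples 3 and 4, an order that 37.9% of all tested genes followed. The median member stood 0.62 and 0.76 above its mean over the 7 libraries on the log2(CPM + 1) scale in NPCTKO samples 1 and 2, and at -0.27 and -0.23 in samples 3 and 4. In NSCHRas-shp53 samples 1 to 3 the median member stood at 0.00, -0.11 and -0.72, and sample 3 was the lowest of its group for 75 of the 80 members, against 30.3% of all tested genes. The highest library was NPCTKO sample 2 for 47 members and the lowest was NSCHRas-shp53 sample 3 for 56.

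**Figure D1:**
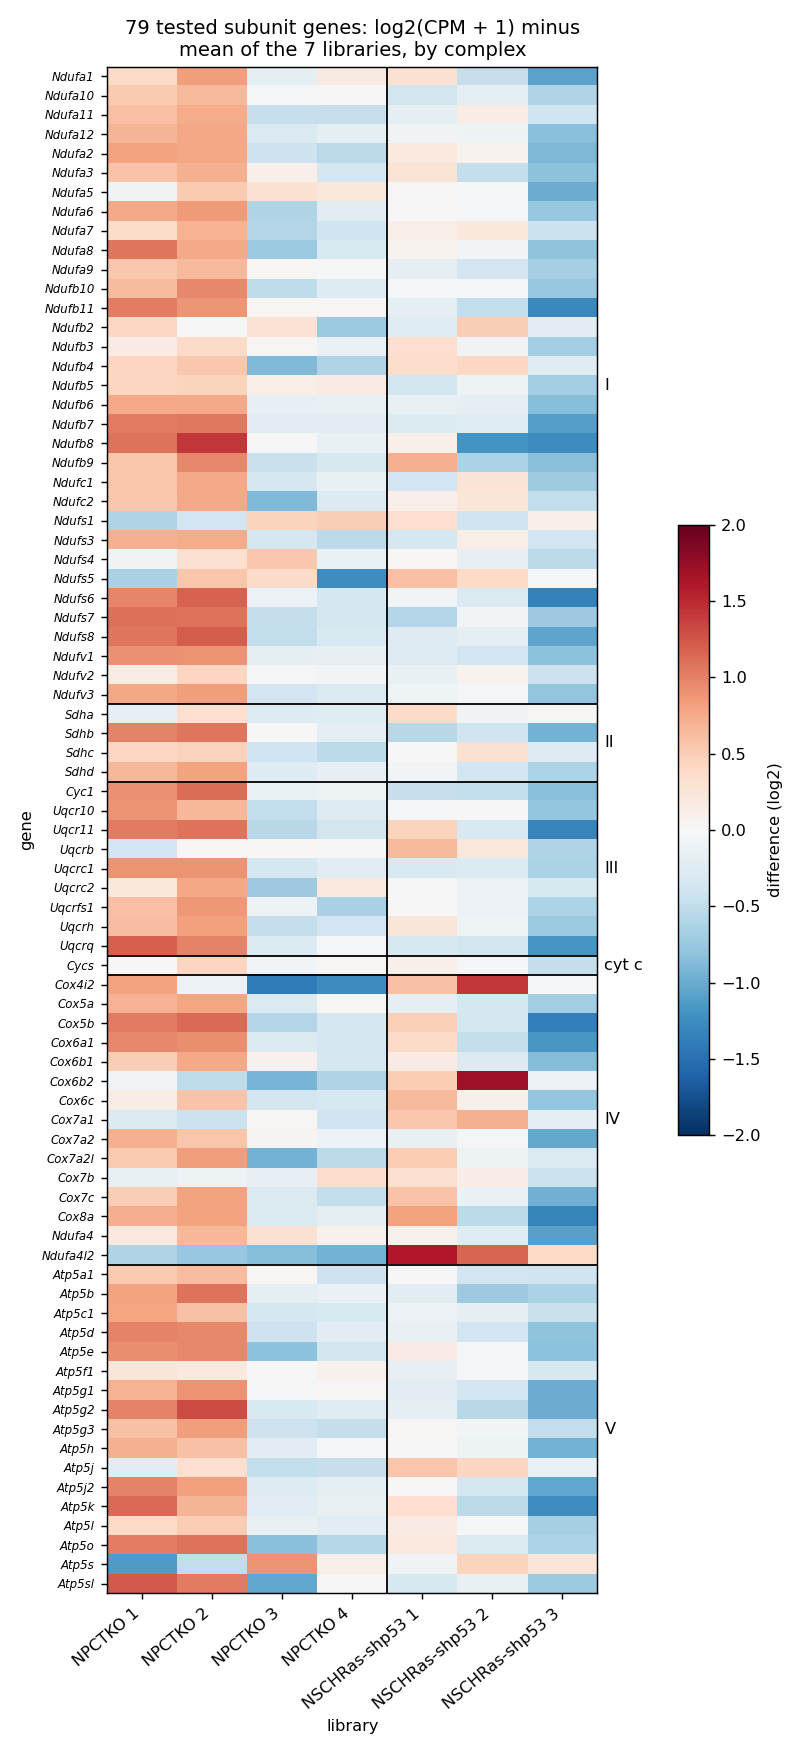
Difference of each of 79 of the 80 tested subunit genes from its own mean over the 7 libraries, in log2(CPM + 1), with genes in rows by complex and libraries in columns. Most rows are red in NPCTKO samples 1 and 2 and blue in NSCHRas-shp53 sample 3, while *Ndufa4l2*, *Cox6b2* and *Cox4i2* have their highest values in NSCHRas-shp53.

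The comparison of the models asks which subunit genes differ between sorted NPCTKO cells and whole NSCHRas-shp53 tissue. *Ndufa4l2* was the only tested member called, higher in NSCHRas-shp53, and no member was called lower, by the edgeR quasi-likelihood test at a Benjamini-Hochberg adjusted p under 0.05. Over the 16091 genes tested, 7.77% were called higher and 5.28% lower in NSCHRas-shp53. At an unadjusted p under 0.05, 12 members were lower and 2 higher, where 15.1% and 15.2% of all tested genes were, so the share of members that were lower was close to the background. DESeq2 called 3 lower (*Sdhb*, *Cyc1* and *Ndufb11*) and 2 higher (*Ndufa4l2* and *Cox6b2*), beside 1922 lower and 2024 higher (12.6%) of the 16026 genes with an adjusted p from DESeq2. The fitted log2 fold change (NSCHRas-shp53 minus NPCTKO) was below 0 for 67 of the 80 members, with a median of -0.56, where the median of all tested genes was -0.10. Without overlap between the groups in CPM, 13 members were lower in NSCHRas-shp53 where 14.9% of all tested genes were, and 1 was higher where 16.3% were.

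These counts turned on which NPCTKO libraries were used. Without NPCTKO samples 1 and 2, the median of the members was 0.011, no member was called lower by edgeR (7.40% of all tested genes were) and 2 were called higher (8.95% of all tested genes), *Ndufa4l2* and *Cox4i2*. Without NPCTKO samples 3 and 4, the median was -0.94, and 50 members were called lower and 2 higher, beside 26.0% and 27.9% of all tested genes. With offsets that remove each library's trends with GC content and length of the transcript, 9 members were called lower and 2 higher, beside 13.3% and 9.23% of all tested genes. The 9 were *Ndufa9*, *Ndufb5*, *Ndufb7*, *Ndufb11*, *Ndufv1*, *Sdhb*, *Cyc1*, *Atp5g1* and *Atp5g2*.

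**Figure D2:**
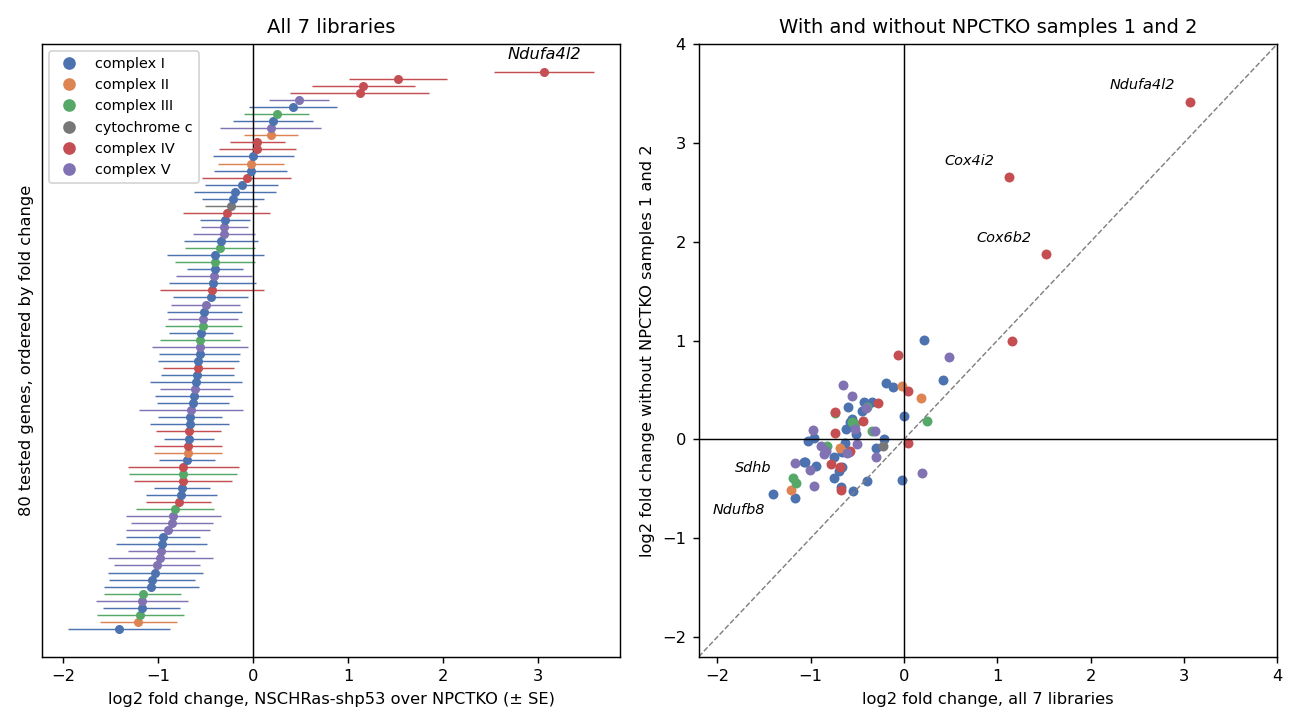
Left, log2 fold change (NSCHRas-shp53 over NPCTKO) with its standard error for the 80 tested members, ordered by value and coloured by complex. Right, the same fold change with all 7 libraries (horizontal) against that without NPCTKO samples 1 and 2 (vertical), where most points lie above the dashed line of equal values and the median is 0.011.

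Complex I takes electrons from NADH, through a matrix arm that holds the flavin and iron-sulfur clusters and a membrane arm that pumps protons. Of its 35 nuclear members 34 were tested, none was called in either direction, and 7 were lower and none higher at an unadjusted p under 0.05, beside 15.1% and 15.2% of all tested genes. Their median log2 fold change was -0.58, with 31 values below 0. *Ndufa13* lies wholly within the spans of other genes, had no counts and was read in the FPKM table, where its mean was 93.2 ± 41.5 FPKM (SD, n = 4) in NPCTKO and 66.5 ± 27.7 FPKM (SD, n = 3) in NSCHRas-shp53.

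*Ndufb11*, an accessory subunit of the membrane arm, was read at 180.3, 164, 90.3 and 89.9 CPM in NPCTKO samples 1 to 4 and at 76.9, 62.5 and 35.5 CPM in NSCHRas-shp53 samples 1 to 3. All NSCHRas-shp53 values lay below all NPCTKO values, and NPCTKO samples 3 and 4 were closer to NSCHRas-shp53 sample 1 than to NPCTKO samples 1 and 2 (log2 fold change -1.17, SE 0.40, adjusted p = 0.0937 from edgeR). *Ndufb8*, another accessory subunit of the membrane arm, was read at 91.4, 115, 42.8 and 38.7 CPM in NPCTKO samples 1 to 4 and at 46.1, 18.1 and 17.3 CPM in NSCHRas-shp53 samples 1 to 3. Here the groups overlapped, since NSCHRas-shp53 sample 1 was above NPCTKO samples 3 and 4 (log2 fold change -1.41, SE 0.54, adjusted p = 0.122 from edgeR), and 62.02% of the span of *Ndufb8* is shared with Gm20538, so its counts are uncertain. *Ndufs5* and *Ndufb4*, also accessory subunits, had the smallest p of the complex I members with a value above 0, at log2 fold changes of 0.42 (adjusted p = 0.578) and 0.21 (adjusted p = 0.773) from edgeR. *Ndufs5* was read at 21.6, 50.9, 45.3 and 14.02 CPM in NPCTKO samples 1 to 4 and at 52.8, 46.1 and 33.6 CPM in NSCHRas-shp53 samples 1 to 3, without the order of the NPCTKO libraries seen in most members.

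Among the core subunits of the matrix arm, *Ndufv1*, which binds the flavin that accepts electrons from NADH, was read at 172, 169.8, 79.4 and 81.1 CPM in NPCTKO samples 1 to 4 and at 75.4, 69.2 and 51.2 CPM in NSCHRas-shp53 samples 1 to 3. Its groups did not overlap (log2 fold change -0.94, SE 0.39, adjusted p = 0.141 from edgeR). *Ndufv2*, its iron-sulfur partner, was read at 88.8, 107, 78.3 and 76.8 CPM in NPCTKO samples 1 to 4 and at 71.9, 83.6 and 59.04 CPM in NSCHRas-shp53 samples 1 to 3, a narrower range in which the groups overlapped (log2 fold change -0.30, SE 0.26, adjusted p = 0.487 from edgeR, and -0.80 with an adjusted p of 0.133 with the GC and length offsets). The ratio of *Ndufv1* to *Ndufv2* CPM was 1.94, 1.59, 1.01 and 1.06 in NPCTKO samples 1 to 4 and 1.05, 0.828 and 0.867 in NSCHRas-shp53 samples 1 to 3, so the pair kept no fixed ratio even within NPCTKO. Transcript GC content was 56.7% for *Ndufv1* and 44.5% for *Ndufv2*.

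*Ndufs1*, the largest iron-sulfur subunit of the matrix arm, went against the library order of the others. It was read at 18.3, 21.5, 39.3 and 40.5 CPM in NPCTKO samples 1 to 4 and at 36.02, 21.3 and 31.01 CPM in NSCHRas-shp53 samples 1 to 3, lowest in NPCTKO samples 1 and 2 within its group (log2 fold change -0.02, SE 0.39, adjusted p = 0.977 from edgeR), and 44.5% of its span is shared with other genes. Among further core subunits the fold changes were -0.45 for *Ndufs3*, -0.96 for *Ndufs7* and -1.03 for *Ndufs8* on the log2 scale, with SEs of 0.40 to 0.50. *Ndufs7* lies next to the ubiquinone site, and *Ndufs8* carries iron-sulfur clusters on the way to it. Without NPCTKO samples 1 and 2 these 3 values were 0.29, 0.02 and -0.02 in the same order, within 0.29 of 0.

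Complex II is also an enzyme of the tricarboxylic acid cycle, and its 4 subunits are all encoded in the nucleus. None of the 4 was called lower or higher by edgeR (5.28% and 7.77% of all tested genes), and the median log2 fold change was -0.35. *Sdhb*, the iron-sulfur subunit, on chromosome 4 from 140961203 to 140979193 of mm10, gave 266, 282, 135 and 118 CPM in NPCTKO samples 1 to 4 and 90.9, 101 and 68.4 CPM in NSCHRas-shp53 samples 1 to 3. All NSCHRas-shp53 libraries lay below all NPCTKO libraries (log2 fold change -1.21, SE 0.40, adjusted p = 0.0847 from edgeR, and adjusted p = 0.0279 from DESeq2). *Sdha*, the flavoprotein that oxidizes succinate and binds *Sdhb* directly, on chromosome 13 from 74322254 to 74350280, gave 147, 210.0, 138 and 139 CPM in NPCTKO samples 1 to 4 and 216, 158 and 168 CPM in NSCHRas-shp53 samples 1 to 3. Its groups overlapped, with the highest values in NSCHRas-shp53 sample 1 and NPCTKO sample 2 (log2 fold change 0.19, SE 0.29, adjusted p = 0.698 from edgeR).

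The ratio of *Sdhb* to *Sdha* CPM, chosen after the values were seen, was 1.81, 1.34, 0.973 and 0.849 in NPCTKO samples 1 to 4 and 0.4204, 0.638 and 0.408 in NSCHRas-shp53 samples 1 to 3. Every NSCHRas-shp53 ratio was below every NPCTKO ratio, and the ratio also differed within NPCTKO. With the GC and length offsets the log2 fold changes were -1.02 (adjusted p = 0.021) for *Sdhb* and 0.08 (adjusted p = 0.82) for *Sdha* from edgeR, and without NPCTKO samples 1 and 2 they were -0.51 and 0.41 with adjusted p of 0.182 and 0.26. For the membrane anchors *Sdhc* and *Sdhd* the log2 fold changes were -0.02 and -0.68 (adjusted p = 0.977 and 0.24 from edgeR).

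The stretches upstream of the starts of this pair are shown because the genes encode partners in the same enzyme with different values across the libraries. They are RefSeq promoter sequences of GRCm38.p6, read 5′ to 3′ on the strand of the gene, at chr4:140961021-140961224 (plus strand) for *Sdhb* and chr13:74350281-74350490 (minus strand) for *Sdha*. Capitals mark matches, on either strand, to GCATGCGC (part of the site of nuclear respiratory factor 1), CCGGAAG (the core of the site of ETS factors such as GABPA) or AAGATGGC (part of the site of YY1).
Sdhb: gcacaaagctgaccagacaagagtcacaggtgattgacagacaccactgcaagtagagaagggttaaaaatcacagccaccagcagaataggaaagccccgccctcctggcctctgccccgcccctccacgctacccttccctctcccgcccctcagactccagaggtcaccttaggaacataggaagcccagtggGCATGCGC
Sdha: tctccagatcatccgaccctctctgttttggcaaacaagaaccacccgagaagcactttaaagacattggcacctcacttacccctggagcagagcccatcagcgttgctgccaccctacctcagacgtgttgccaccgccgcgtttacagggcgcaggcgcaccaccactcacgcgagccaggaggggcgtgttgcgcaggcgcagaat
The *Sdhb* stretch holds the first of these motifs, and its last 22 bases lie inside the gene span of the count table. The longer *Sdhb* promoter sequence from which it was cut also holds CCGGAAG, on either strand, outside the stretch shown. The *Sdha* stretch holds none of the 3 motifs, which says only that these letters are not in it.

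Over all members, 67 of 86 had a RefSeq promoter window (250 bases before to 50 after the start) under the same symbol, and 30 of these held at least 1 of the 3 motifs. GCATGCGC was found in 11 of them (16.4%), beside 5.27% of the 11710 tested genes with a window and 3.05% of all 27025 symbols with a window. CCGGAAG was in 16 (23.9%, beside 17.2% and 9.93%) and AAGATGGC in 9 (13.4%, beside 4.57% and 3.19%). AAGATGGC was in 7 of 31 complex I windows and 2 of 13 complex V windows, and in none of the 14 complex IV windows. CCGGAAG was in 5 of 13 complex V and 3 of 14 complex IV windows. *Cycs* and *Sdhb* were among those with GCATGCGC. Such matches describe the letters and not the binding of a factor.

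Complex III oxidizes ubiquinol and reduces cytochrome c through cytochrome b, cytochrome c1 and the Rieske iron-sulfur protein. All 9 nuclear members were tested, none was called, 2 were lower and none higher at an unadjusted p under 0.05 (15.1% and 15.2% of all tested genes), and the median log2 fold change was -0.56. *Cyc1*, which is cytochrome c1, was read at 265, 305, 127 and 129 CPM in NPCTKO samples 1 to 4 and at 101, 99.1 and 77.5 CPM in NSCHRas-shp53 samples 1 to 3. The groups did not overlap (log2 fold change -1.16, SE 0.40, adjusted p = 0.0941 from edgeR). Without NPCTKO sample 3 its adjusted p from edgeR was 0.0477, and DESeq2 gave 0.0356. *Uqcrq*, a small subunit, was read at 354, 309.7, 128 and 150.2 CPM in NPCTKO samples 1 to 4 and at 123, 119 and 67.8 CPM in NSCHRas-shp53 samples 1 to 3. Its groups did not overlap either, and NSCHRas-shp53 sample 3 was the lowest library (log2 fold change -1.19, SE 0.46, adjusted p = 0.123 from edgeR).

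*Uqcrb*, a small subunit near the ubiquinone site, was the only complex III member with a log2 fold change above 0. It was read at 29.3, 39.5, 39.7 and 38.7 CPM in NPCTKO samples 1 to 4 and at 61.1, 45.2 and 24.96 CPM in NSCHRas-shp53 samples 1 to 3, lowest in NSCHRas-shp53 sample 3 and highest in NSCHRas-shp53 sample 1 (log2 fold change 0.25, SE 0.34, adjusted p = 0.666 from edgeR), and the sign turned with the GC and length offsets, to -0.30. Its transcript GC content of 42.2% is among the lowest of the members. *Uqcrfs1*, the Rieske protein, and the core proteins *Uqcrc1* and *Uqcrc2* had log2 fold changes of -0.53, -0.82 and -0.35 with SEs of 0.41, 0.41 and 0.36, and with the offsets *Uqcrc1* and *Uqcrc2* were at -0.50 and -0.68. *Cycs*, the mobile carrier cytochrome c that also triggers apoptosis when released from mitochondria, was read at 86.6, 117, 82.8 and 87.6 CPM in NPCTKO samples 1 to 4 and at 92.3, 84.98 and 62.1 CPM in NSCHRas-shp53 samples 1 to 3. Apart from NPCTKO sample 2 and NSCHRas-shp53 sample 3, its values lay within a narrow range (log2 fold change -0.23, SE 0.27, adjusted p = 0.611 from edgeR), and *Cycs* has the lowest transcript GC content of the tested members, 40.8%. With the GC and length offsets its log2 fold change was -1.28 (adjusted p = 0.115 from edgeR).

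Complex IV is the step where isoforms are exchanged between tissues, and several of its subunits have a ubiquitous and a tissue isoform. Of 20 members 15 were tested. *Ndufa4l2* was called higher, *Cox6b2* was also higher at an unadjusted p under 0.05, and none was lower at that level (15.2% and 15.1% of all tested genes). The median log2 fold change was -0.28. The members not tested were *Cox4i1* and *Cox6a2*, which lie wholly within the spans of other genes and had no counts, *Cox7b2* and *Cox8b* with few counts, and *Cox8c*, an isoform of testis, which had no counts and no FPKM in any library.

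*Ndufa4l2*, the paralog of *Ndufa4* known for its rise under hypoxia and for its expression in brain pericytes, lies on chromosome 10 from 127514939 to 127517152 of mm10. It was read at 0.807, 0.624, 0.521 and 0.423 CPM in NPCTKO samples 1 to 4 and at 7.27, 5.12 and 2.595 CPM in NSCHRas-shp53 samples 1 to 3. Every NSCHRas-shp53 library was above every NPCTKO library (log2 fold change 3.06, SE 0.53, adjusted p = 0.0106 from edgeR), with a log2 fold change of 3.41 (adjusted p = 0.022) without NPCTKO samples 1 and 2 and of 3.16 (adjusted p = 0.0051) with the GC and length offsets. With the replicate number as a block the call was lost, since the value was 2.83 with an adjusted p of 0.0556 in edgeR. Whether the numbers pair the samples is not given. The counts behind it were 12, 8, 10 and 7 in NPCTKO, and 133, 101 and 60 in NSCHRas-shp53.

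Mural cell markers were also higher in NSCHRas-shp53, as were the astrocyte and neuron sums above. The 9 mural markers, all with counts in some library, summed to 37.3, 26.3, 35.1 and 21.6 CPM in NPCTKO samples 1 to 4 and 485, 293 and 430.3 CPM in NSCHRas-shp53 samples 1 to 3. Of the 9, 5 were called higher and none lower by edgeR, beside 7.77% and 5.28% of all tested genes. *Rgs5*, a marker of pericytes, was at 1.35, 0.702, 0.313 and 4.29 CPM in NPCTKO samples 1 to 4 and at 206, 158 and 267 CPM in NSCHRas-shp53 samples 1 to 3. Within NSCHRas-shp53, sample 3 was the lowest for *Ndufa4l2*, and the mural markers did not share 1 order. *Abcc9*, *Acta2*, *Kcnj8*, *Tagln* and *Vtn* were also lowest in sample 3. *Rgs5*, *Pdgfrb* and *Tbx18* were highest there, and *Myh11* was lowest in sample 2. The sum of 9 endothelial markers was higher as well, at 32.0 to 323 CPM in NPCTKO and 509 to 1051 CPM in NSCHRas-shp53. The part of mural cells in the *Ndufa4l2* result was not tested. *Ndufa4* itself was read at 103, 143, 111 and 94.96 CPM in NPCTKO samples 1 to 4 and at 94.8, 75.95 and 41.7 CPM in NSCHRas-shp53 samples 1 to 3, without overlap between the groups although NSCHRas-shp53 sample 1 lay just below NPCTKO sample 4 (log2 fold change -0.67, SE 0.34, adjusted p = 0.223 from edgeR, and -1.02 with an adjusted p of 0.0742 with the GC and length offsets).

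*Cox6b2*, known as the testis isoform of *Cox6b1*, was read at 8.75, 6.08, 4.32 and 5.68 CPM in NPCTKO samples 1 to 4 and at 13.4, 31.9 and 8.304 CPM in NSCHRas-shp53 samples 1 to 3. NSCHRas-shp53 sample 3 lay below NPCTKO sample 1, so the groups overlapped (log2 fold change 1.53, SE 0.51, adjusted p = 0.0859 from edgeR), and DESeq2 gave an adjusted p of 0.023. *Cox4i2*, the isoform of *Cox4i1* known from lung and from hypoxia, was read at 10.97, 5.303, 1.61 and 1.87 CPM in NPCTKO samples 1 to 4 and at 9.29, 17.3 and 5.71 CPM in NSCHRas-shp53 samples 1 to 3. NPCTKO sample 1 was above 2 of the 3 NSCHRas-shp53 libraries (log2 fold change 1.12, SE 0.73, adjusted p = 0.337 from edgeR), and without NPCTKO samples 1 and 2 the log2 fold change was 2.65 (adjusted p = 0.0311). *Cox7a1*, the heart and muscle isoform of *Cox7a2*, was low in all libraries, at 0.807, 0.624, 1.25 and 0.665 CPM in NPCTKO samples 1 to 4 and at 2.19, 2.59 and 0.908 CPM in NSCHRas-shp53 samples 1 to 3 (log2 fold change 1.16, SE 0.54, adjusted p = 0.189 from edgeR). In CPM the *Cox7a1* groups overlapped, since NSCHRas-shp53 sample 3 lay below NPCTKO sample 3.

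Among the ubiquitous subunits, *Cox5a*, which binds the matrix side of the complex, was read at 115, 124, 58.1 and 72.9 CPM in NPCTKO samples 1 to 4 and at 62.4, 55.3 and 43.6 CPM in NSCHRas-shp53 samples 1 to 3. NSCHRas-shp53 sample 1 lay above NPCTKO sample 3, so the groups overlapped (log2 fold change -0.78, SE 0.34, adjusted p = 0.166 from edgeR). *Cox4i1*, which had no counts, was read at 1309, 1400.1, 472 and 488 FPKM in NPCTKO samples 1 to 4 and at 785, 523 and 308 FPKM in NSCHRas-shp53 samples 1 to 3. It followed the library order of most members, high in NPCTKO samples 1 and 2 and lowest in NSCHRas-shp53 sample 3.

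Since isoforms of a subunit compete for the same place in complex IV, the share of the second isoform in the FPKM of each of 6 pairs was computed. FPKM is scaled by transcript length, but for short transcripts it did not follow the count per length. In NPCTKO sample 1, *Atp5k* (321.5 bases) had 78.4 CPM and 1142 FPKM. *Atp5b* (1916 bases) had 1445 CPM and 819 FPKM in the same library. Levels of different genes, and so the size of a share, can thus be compared only roughly. The share of *Cox4i2* was 1.12, 0.528, 0.552 and 0.457% in NPCTKO samples 1 to 4 and 1.499, 5.97 and 2.31% in NSCHRas-shp53 samples 1 to 3. For *Cox6b2* it was 2.305, 1.67, 1.57 and 3.31% in NPCTKO samples 1 to 4 and 4.904, 15.1 and 6.41% in NSCHRas-shp53 samples 1 to 3. The *Cox7a1* share was 2.18, 2.01, 1.56 and 3.16% in NPCTKO samples 1 to 4 and 9.44, 10.8 and 5.17% in NSCHRas-shp53 samples 1 to 3. That of *Ndufa4l2* was 0.198, 0.1099, 0.111 and 0.1497% in NPCTKO samples 1 to 4 and 2.73, 2.25 and 1.94% in NSCHRas-shp53 samples 1 to 3. In these 4 pairs every NSCHRas-shp53 library was above every NPCTKO library, including NPCTKO samples 1 and 2, and the second isoform stayed at or below 15.1% of its pair. The FPKM of *Cox4i2* itself overlapped, at 14.9 in NPCTKO sample 1 and 11.9 and 7.29 in NSCHRas-shp53 samples 1 and 3. So did that of *Cox7a1*, at 4.88 in NPCTKO sample 1 and 3.88 in NSCHRas-shp53 sample 3. The shares of these genes thus also depend on *Cox4i1* and *Cox7a2*, both lowest in NSCHRas-shp53 sample 3.

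The two-sided exact permutation p was 0.0286 for each of these 4 pairs, the smallest that the 35 splits of 4 against 3 libraries allow, and 0.0429 after Benjamini-Hochberg adjustment over the 6 pairs. The shares and this test were added after the data were seen. These p-values therefore restate the separation of the groups and are not an independent test of it. The mean shares were 0.665% ± 0.308 (SD, n = 4) against 3.26% ± 2.38 (SD, n = 3) for *Cox4i2*, and 0.142% ± 0.0414 against 2.31% ± 0.399 for *Ndufa4l2*. For *Cox6a2*, the heart and muscle isoform of *Cox6a1*, the shares were 1.36, 1.65, 0.222 and 0.426% in NPCTKO samples 1 to 4 and 1.01, 0.744 and 0.952% in NSCHRas-shp53 samples 1 to 3 (exact permutation p = 0.971), with the split within NPCTKO wider than between the models. For *Cox8b*, the muscle isoform of *Cox8a*, they were 0.545, 0.286, 0 and 0% in NPCTKO samples 1 to 4 and 0.0669, 0.0809 and 1.03% in NSCHRas-shp53 samples 1 to 3 (exact permutation p = 0.571), where a 0 is a listed value of the FPKM table. The FPKM rows of *Cox6b1* and *Cox8a* are shared with neighbouring genes, Upk1a and Zbtb32 for the first and Otub1 for the second.

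**Figure D3:**
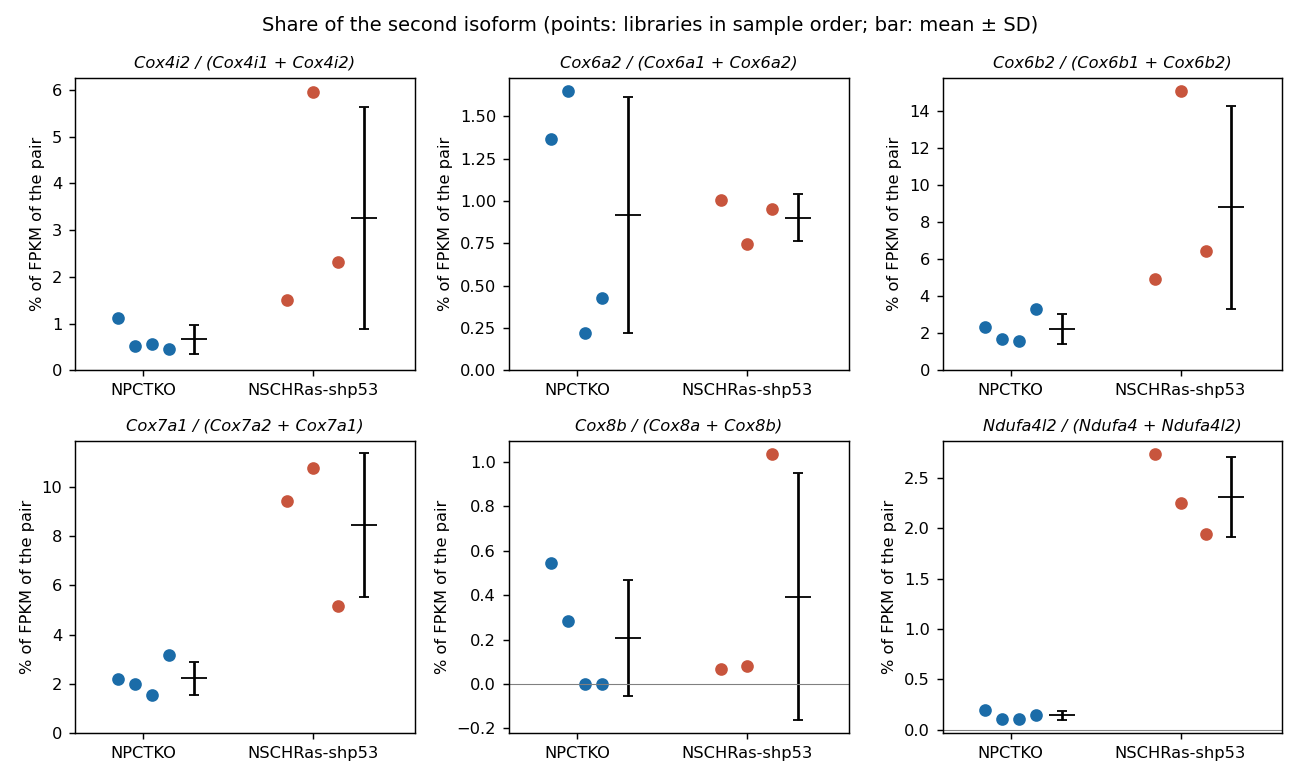
Share of the second isoform in the FPKM of 6 isoform pairs, in percent, with 1 point per library (NPCTKO blue, NSCHRas-shp53 red) and the mean ± SD of each group as a bar. For *Cox4i2*, *Cox6b2*, *Cox7a1* and *Ndufa4l2* all red points lie above all blue points, and for *Cox6a2* and *Cox8b* they overlap.

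The upstream stretches of *Cox6b1* and *Cox6b2* are shown as the pair whose second isoform reached the largest share in any library. They lie at chr7:30626136-30626364 (minus strand) and chr7:4753095-4753344 (minus strand) of GRCm38.p6 in RefSeq, with capitals as above.
Cox6b1: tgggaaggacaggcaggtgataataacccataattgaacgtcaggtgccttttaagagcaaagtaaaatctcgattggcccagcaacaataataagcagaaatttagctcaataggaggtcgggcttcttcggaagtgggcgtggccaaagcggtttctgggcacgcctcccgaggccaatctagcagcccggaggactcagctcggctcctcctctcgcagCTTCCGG
Cox6b2: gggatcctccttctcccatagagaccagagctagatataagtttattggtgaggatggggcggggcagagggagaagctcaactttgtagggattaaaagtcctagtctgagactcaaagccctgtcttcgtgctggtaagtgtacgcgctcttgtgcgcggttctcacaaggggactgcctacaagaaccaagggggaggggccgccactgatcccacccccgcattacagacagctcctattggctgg
The ubiquitous gene holds the ETS motif, read here on the opposite strand, and its last 16 bases lie inside the gene span of the count table. No match to the 3 motifs lies in the stretch of *Cox6b2*. CG dinucleotides numbered 12 in 229 bases for *Cox6b1* and 8 in 250 bases for *Cox6b2*.

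Complex V makes ATP by rotation of a ring of c subunits that turns the shaft of the catalytic head. All 17 members were tested and none was called, 2 were lower and none higher at an unadjusted p under 0.05 (15.1% and 15.2% of all tested genes), and the median log2 fold change was -0.61. The 17 include *Atp5s* and *Atp5sl*, which were placed here by name and classed as related factors. For *Atp5sl* the log2 fold change was -0.98 (SE 0.55, adjusted p = 0.274 from edgeR). *Atp5b*, the catalytic beta subunit and the member with the most counts, was read at 1445, 1754, 725 and 755 CPM in NPCTKO samples 1 to 4 and at 718, 500.5 and 530.3 CPM in NSCHRas-shp53 samples 1 to 3. The groups did not overlap, although NPCTKO sample 3 and NSCHRas-shp53 sample 1 were close (log2 fold change -1.01, SE 0.45, adjusted p = 0.175 from edgeR). *Atp5a1*, the alpha subunit of the head, and *Atp5c1*, the gamma subunit of the shaft, had log2 fold changes of -0.50 and -0.52 with SEs of 0.37 and 0.37.

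The c subunit is encoded by *Atp5g1*, *Atp5g2* and *Atp5g3*, whose mature proteins are identical. *Atp5g1* was read at 143, 166, 86.7 and 90.1 CPM in NPCTKO samples 1 to 4 and at 75.1, 67.6 and 43.6 CPM in NSCHRas-shp53 samples 1 to 3. Its groups did not overlap (log2 fold change -0.97, SE 0.35, adjusted p = 0.109 from edgeR). *Atp5g2* was read at 389.9, 484, 157 and 164 CPM in NPCTKO samples 1 to 4 and at 169.6, 132 and 97.3 CPM in NSCHRas-shp53 samples 1 to 3, where NSCHRas-shp53 sample 1 was above NPCTKO samples 3 and 4 (log2 fold change -1.17, SE 0.49, adjusted p = 0.149 from edgeR). The log2 fold change of *Atp5g3* was -0.41 (SE 0.40).

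In FPKM, *Atp5g3* made up 27.1, 25.7, 29.5 and 26.6% of the 3 genes in NPCTKO samples 1 to 4 and 33.7, 41.1 and 41.2% in NSCHRas-shp53 samples 1 to 3. The groups did not overlap in this share, which was chosen after its values were seen and was not tested. *Atp5g2* made up 55.7, 57.6, 48.3 and 49.9% and 49.1, 40.9 and 43.03%, with NSCHRas-shp53 sample 1 above NPCTKO sample 3. The 3 genes differ in transcript GC content, at 50.98% for *Atp5g1*, 56.7% for *Atp5g2* and 50.5% for *Atp5g3*.

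*Atp5j*, coupling factor 6 of the stalk, and *Atp5s*, a related factor now named Dmac2l, were the complex V members with log2 fold changes above 0. *Atp5j* was read at 57.5, 84.7, 47.3 and 48.5 CPM in NPCTKO samples 1 to 4 and at 98.8, 90.4 and 60.9 CPM in NSCHRas-shp53 samples 1 to 3 (log2 fold change 0.49, SE 0.32, adjusted p = 0.337 from edgeR). *Atp5s* was read at 4.37, 7.33, 20.99 and 11.7 CPM in NPCTKO samples 1 to 4 and at 10.2, 14.97 and 12.8 CPM in NSCHRas-shp53 samples 1 to 3 (log2 fold change 0.19, SE 0.53, adjusted p = 0.848 from edgeR), and its sign turned without NPCTKO sample 1. Its NPCTKO libraries ran opposite to most members, with samples 1 and 2 the lowest of all 7.

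As a share of all counts, before TMM scaling, the 86 members together made up 0.993, 1.07, 0.793 and 0.755% of all counts in NPCTKO samples 1 to 4 and 0.8199, 0.764 and 0.574% in NSCHRas-shp53 samples 1 to 3. The shares overlapped between the models, and the difference between NPCTKO samples 1 and 2 and samples 3 and 4 was smaller on this scale, since the TMM factors were 0.775 and 0.764 for samples 1 and 2 and 1.17 and 1.10 for samples 3 and 4. Complex I made up 0.251, 0.269, 0.207 and 0.196% of all counts in NPCTKO samples 1 to 4 and 0.198, 0.212 and 0.146% in NSCHRas-shp53 samples 1 to 3. Complex V made up 0.378, 0.406, 0.298 and 0.279% of all counts in NPCTKO samples 1 to 4 and 0.279, 0.259 and 0.223% in NSCHRas-shp53 samples 1 to 3. For complex IV, without *Cox4i1*, the range was 0.133 to 0.187% in NPCTKO and 0.0879 to 0.193% in NSCHRas-shp53, whose sample 1 was the highest of all.

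The 13 protein genes of mitochondrial DNA, which code for the partner subunits of the same complexes, took a larger share of the counts in NSCHRas-shp53. They made up 0.763, 0.395, 1.13 and 0.909% of all counts in NPCTKO samples 1 to 4 and 4.48, 3.97 and 1.66% in NSCHRas-shp53 samples 1 to 3. In this share all NSCHRas-shp53 libraries were above all NPCTKO libraries. The genes were counted very unevenly, so the sum describes mainly its highest genes. Over the libraries, *mt-Co3* was at 1.27 to 27.04 CPM and *mt-Co2* at 6.61 to 95.4 CPM, far below *mt-Co1*. For *mt-Co2*, NSCHRas-shp53 sample 1 at 6.61 CPM lay below all NPCTKO libraries, at 12.996 to 45.1 CPM. By edgeR 8 of the 13 genes were called higher and none lower (7.77% and 5.28% of all tested genes), with a median log2 fold change of 2.58. With the GC and length offsets 5 were called higher, 3 of the 13 values were below 0 and the median was 1.65, and without NPCTKO samples 1 and 2 again 5 were called, with a median of 2.43. *mt-Nd1*, a core subunit of complex I, was read at 609, 437, 788 and 429 CPM in NPCTKO samples 1 to 4 and at 5597, 3034 and 1485 CPM in NSCHRas-shp53 samples 1 to 3 (log2 fold change 2.58, SE 0.54, adjusted p = 0.0205 from edgeR), and the call was lost with the offsets (1.44, adjusted p = 0.14) and without NPCTKO samples 1 and 2 (2.50, adjusted p = 0.0515). *mt-Co1*, the catalytic subunit of complex IV, was read at 7659, 3650.3, 5429 and 5477 CPM in NPCTKO samples 1 to 4 and at 22227, 16776 and 6471 CPM in NSCHRas-shp53 samples 1 to 3, where the groups overlapped (log2 fold change 1.45, SE 0.64, adjusted p = 0.168 from edgeR). Libraries were made from poly(A)-selected RNA of sorted cells for NPCTKO and of whole tissue for NSCHRas-shp53, and the part of the preparation was not tested.

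**Figure D4:**
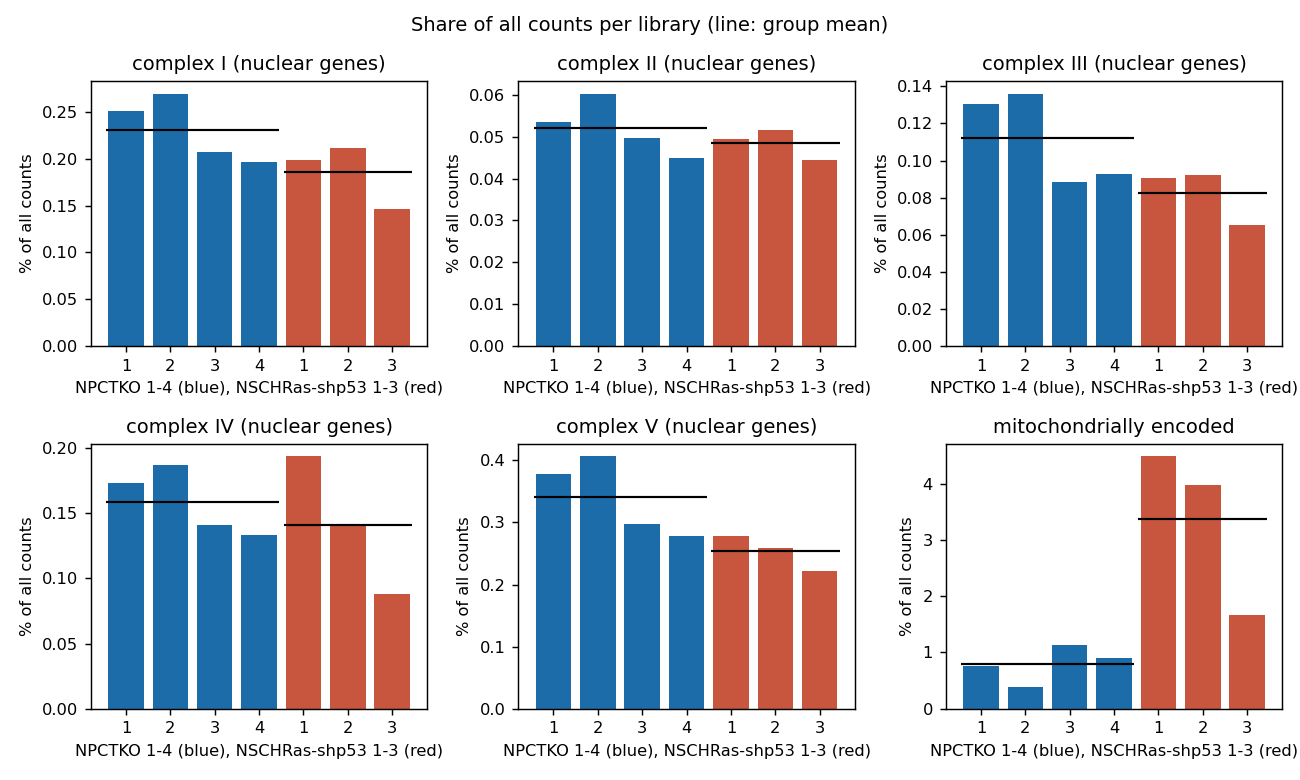
Share of all counts taken by the nuclear members of each complex and by the 13 mitochondrially encoded genes, in percent, 1 bar per library (NPCTKO 1 to 4 blue, NSCHRas-shp53 1 to 3 red) with the group mean as a line. The nuclear shares overlap between the models, while the mitochondrially encoded share is 0.395 to 1.13% in NPCTKO and 1.66 to 4.48% in NSCHRas-shp53.

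Most members are short transcripts, with a median length of 659 bases against 2131 for all tested genes and a median GC content of 52.2% against 50.6%. Across the 79 members with a transcript, the Spearman correlation between GC content and the difference of a library from the mean was 0.54 and 0.42 in NPCTKO samples 1 and 2, -0.41 and -0.41 in samples 3 and 4, and -0.08, -0.16 and -0.21 in NSCHRas-shp53 samples 1 to 3. These describe genes that share their libraries and are not independent replicates. Over all 15674 tested genes with a transcript the same correlations were 0.57, 0.49, -0.37, -0.36, -0.15, -0.26 and -0.29. With transcript length the correlations over the members were -0.10, -0.09, 0.11 and 0.11 in NPCTKO samples 1 to 4 and -0.36, -0.03 and 0.37 in NSCHRas-shp53 samples 1 to 3, and over all genes they were -0.21, -0.23, 0.15, 0.17, 0.08, 0.00 and 0.20.

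Among the 19 members richest in GC (55.5 to 62.3%), the median difference was 0.92 and 0.92 in NPCTKO samples 1 and 2. Among the 20 poorest (40.8 to 49.1%) it was 0.31 and 0.54. The members rich in GC thus stood further from the mean in these libraries, and in NSCHRas-shp53 sample 3 the medians were -0.80 for the richest and -0.63 for the poorest. With the GC and length offsets the median log2 fold change of the members was -0.50 and that of all genes -0.27, so the gap between them was -0.24, beside -0.46 without the offsets. The part of GC content in the library order was not tested beyond this.

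**Figure D5:**
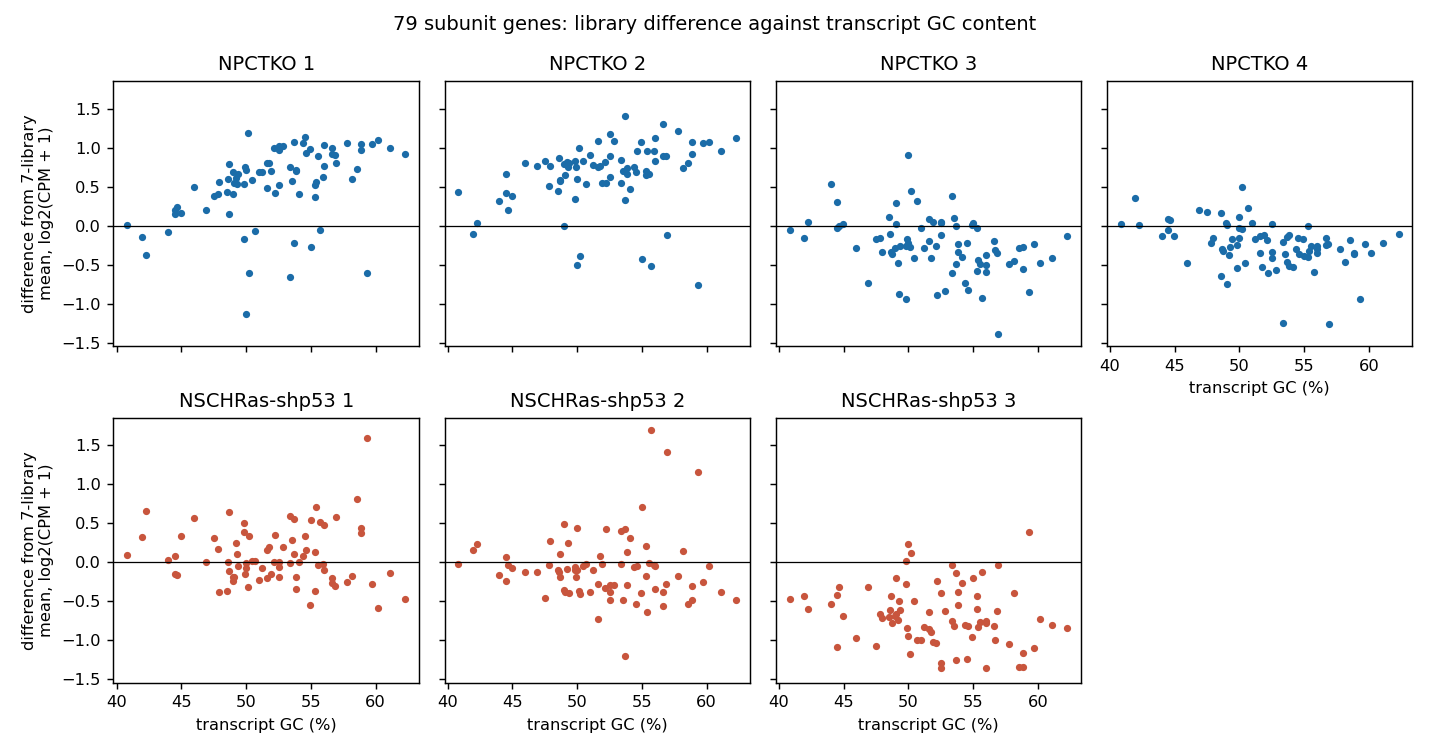
Difference of each of 79 members from its mean over the 7 libraries, in log2(CPM + 1), against the GC content of its transcript in percent, 1 panel per library (NPCTKO blue, NSCHRas-shp53 red). The points climb to the right in NPCTKO samples 1 and 2 (Spearman 0.54 and 0.42) and descend in samples 3 and 4 (-0.41 each).

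The highest members by mean FPKM over the libraries were the complex IV genes *Cox6a1*, *Cox4i1* and *Cox8a*, with the limit of FPKM for short transcripts given above. Their means were 1007 ± 333, 917 ± 507 and 716 ± 192 FPKM (SD, n = 4) in NPCTKO, spreads within which the 3 cannot be ordered. In NSCHRas-shp53 they were 755 ± 355, 539 ± 239 and 681 ± 475 FPKM (SD, n = 3). Small subunits of complexes III and V followed, *Atp5k*, *Atp5e* and *Uqcrq* among them. Core subunits were spread over the order. *Ndufv1* at 71.7 ± 28.1 and *Sdha* at 60.6 ± 15.5 FPKM in NPCTKO were lower, while *Atp5b* was at 679 ± 262 FPKM in NPCTKO. Tissue isoforms lay low in the order, with *Cox6b2* at 12.4 ± 3.02 and *Ndufa4l2* at 0.537 ± 0.123 FPKM in NPCTKO, and the last places by mean over the libraries were those of *Cox8b*, *Cox7b2* and *Cox8c*.

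Genes that assemble or regulate the chain were counted from lists chosen with earlier results of these data known. Of 45 tested assembly factors, 1 was called lower and none higher, beside 5.28% and 7.77% of all tested genes, with a median log2 fold change of -0.22. The factor called was *Sco1*, which carries copper to complex IV, at 29.1, 29.3, 18.8 and 17.5 CPM in NPCTKO samples 1 to 4 and at 7.38, 7.51 and 8.65 CPM in NSCHRas-shp53 samples 1 to 3 (log2 fold change -1.59, SE 0.35, adjusted p = 0.0226 from edgeR). With the GC and length offsets, 3 assembly factors were called lower and none higher, beside 13.3% and 9.23% of all tested genes. Of 19 regulators of mitochondrial biogenesis and DNA, 2 were called lower and none higher (5.28% and 7.77% of all tested genes), with a median of -0.22. These were *Polg*, the mitochondrial DNA polymerase, and *Pprc1*, a coactivator of the PGC-1 family, which was not called with the offsets (log2 fold change -0.94, adjusted p = 0.0838). With the offsets 4 regulators were called lower and none higher (13.3% and 9.23% of all tested genes), namely *Polg*, *Polrmt*, *Twnk* and *Tfam*.

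*Polg* was read at 285, 284, 84.4 and 153 CPM in NPCTKO samples 1 to 4 and at 55.1, 42.97 and 56.3 CPM in NSCHRas-shp53 samples 1 to 3 (log2 fold change -1.97, SE 0.47, adjusted p = 0.0304 from edgeR). *Ppargc1a*, the main coactivator of mitochondrial biogenesis, was low in all libraries and did not pass the test, at 0.875, 3.43, 4.27 and 3.51 CPM in NPCTKO samples 1 to 4 and at 7.32, 11.1 and 11.2 CPM in NSCHRas-shp53 samples 1 to 3 (log2 fold change 1.71, SE 0.55, adjusted p = 0.0762 from edgeR). *Nrf1* and *Tfam*, a transcription factor of subunit genes and the packaging factor of mitochondrial DNA, had log2 fold changes of -0.20 and -0.46 with SEs of 0.26 and 0.29. With the GC and length offsets these were -0.18 and -0.87, with adjusted p of 0.651 and 0.0219 from edgeR. None of 18 genes of the tricarboxylic acid cycle and pyruvate entry was called in either direction by edgeR, 1 was lower and none higher at an unadjusted p under 0.05 (15.1% and 15.2% of all tested genes), and the median was -0.29. With the offsets 1 of the 18 was called lower, *Pdhb* (log2 fold change -0.87, adjusted p = 0.024 from edgeR), beside 13.3% of all tested genes.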

How the data were processed

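Bulk RNA-seq of 4 NPCTKO samples (sorted GBM cells) and 3 NSCHRas-shp53 samples (whole GBM tissue) was used. The authors deposited a table of raw counts for each gene, after trimming with Cutadapt (1.16 in the submitters' processing notes) and alignment to mm10 with TopHat 2.1.1. The tool that counted reads was not given in the sources used here, and members that lie wholly within other genes have 0 counts. A deposited FPKM table, computed by the authors in Cufflinks 2.2.1, was used for such members and for isoform shares. The labels name a non-directional kit, so overlapping genes on opposite strands cannot be told apart.

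The members and lists were chosen with earlier results of these data known. Groups were taken from the labels. Genes were compared in the direction NSCHRas-shp53 minus NPCTKO in R 4.3.3 by the quasi-likelihood test of edgeR 4.0.16, after filterByExpr and with TMM factors, and p-values were adjusted over all tested genes by the Benjamini-Hochberg method. CPM values carry the TMM factors. Transcript GC content and length came from GENCODE transcripts of GRCm38 and were available for 79 of the 80 tested members and 15674 of the 16091 tested genes. Their trends were removed per library by spline offsets as an alternative. Other alternatives were DESeq2 1.42.0, limma 3.58.1 on log2(FPKM + 1) and on log2(FPKM + 0.1), other size factors and filters, a replicate block and leaving out libraries. Isoform shares and their exact permutation test were added after the data were seen, as was leaving out libraries for them. The edgeR test and the offsets were tested on simulated data.

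The genes named are the core and isoform subunits, up to 2 members of each complex and direction with the smallest p, and every called member. A gene under this rule is not reported here and is left out of the heatmap. Others were named after their values were seen, among them the members with offset calls, the pathway genes outside the complexes and the members at the top of the FPKM order. The precision is limited by 4 and 3 libraries and by total counts of 15002873 to 19840860. Floors cover counting error only.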

Additional observations from a re-analysis of the deposited data

Results flagged for a closer look

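In the NPCTKO group of 4, the highest or lowest library was checked for its distance from the others in 48 genes and summed shares, of which 3 passed Dixon's 95% critical value for 4 samples. Chance flags about 1 in 20 such groups. For *Sdha*, NPCTKO sample 2 at 210.0 CPM lay apart from the other 3 libraries at 138 to 147 CPM (ratio of gap to range 0.877). *Cycs* was likewise highest in NPCTKO sample 2, at 117 CPM against 82.8 to 87.6 CPM (0.857). *Uqcrb* was lowest in NPCTKO sample 1, at 29.3 CPM against 38.7 to 39.7 CPM (0.909). The cause of these distances was not tested.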

How the results depend on the processing

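Changes of the scaling moved the median of all genes by 0.18 (log2) without TMM factors and by -0.17 with the GC and length offsets, which also turned the calls over all genes from 59.5% higher to 41.0% higher. The median of the members relative to that of all genes was -0.46 with all libraries, -0.35 without TMM factors and -0.24 with the offsets. The median of the members was -0.34 to -0.72 when each library was left out in turn and 0.011 without NPCTKO samples 1 and 2. All genes called lower numbered 540 without TMM factors. DESeq2 called 2 members higher and 3 lower, and 2024 and 1922 over all genes. The GC and length offsets gave 2 members higher, 9 lower and 2083 genes lower. Without NPCTKO samples 1 and 2, 2 members were called higher. Without NPCTKO samples 3 and 4 these were 2 higher and 50 lower, and 4638 higher and 4313 lower over all genes. Leaving out each library in turn called 1 member higher and 0 to 1 lower, and 415 to 1387 genes higher and 124 to 1208 lower, with the lowest counts without NSCHRas-shp53 sample 3.

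Whether replicate numbers pair the samples is not given. The correlations of deviations from the group means were 0.28, -0.19 and 0.19 for numbers 1 to 3, and no NSCHRas-shp53 sample correlated best with its own number. NSCHRas-shp53 sample 1 was at 0.28 and 0.35 with NPCTKO samples 1 and 2 and at -0.32 and -0.26 with samples 3 and 4. The correlations follow this split within NPCTKO, so they cannot decide the pairing. With the replicate block, no member was called higher or lower (0 and 0), *Ndufa4l2* had a log2 fold change of 2.83 and an adjusted p of 0.0556 in edgeR, and 718 and 323 genes were called over the table. The block with GC and length offsets called 0 members higher and 1 lower (*Atp5g1*), and 778 genes higher. The *Ndufa4l2* fold change lay between 2.73 and 3.38 and stayed called with each library left out. The sign of *Uqcrb* turned with the offsets (-0.30), with block and offsets (-0.46) and without NSCHRas-shp53 sample 1 (range with each library left out -0.035 to 0.54), that of *Atp5s* without NPCTKO sample 1 (range -0.055 to 0.70) and without samples 1 and 2 (-0.34), and that of *Ndufb4* without NPCTKO samples 3 and 4 (-0.30). None of these was called in either fit, and the cause of these changes was not tested. Low isoforms such as *Cox7b2* and *Cox8b* were limited by depth, with at most 16 counts in a library.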

Other observations

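The sums of ribosomal protein genes were also highest in NPCTKO samples 1 and 2 and lowest in NSCHRas-shp53 sample 3. The 101 cytosolic ribosomal protein genes summed to 77002 and 82085 CPM in NPCTKO samples 1 and 2, to 23863 and 33722 CPM in samples 3 and 4, and to 39255, 28950 and 20565 CPM in NSCHRas-shp53 samples 1 to 3. Of 87 that were tested, 1 was called lower and none higher (5.28% and 7.77% of all tested genes), with a median log2 fold change of -0.83. With the GC and length offsets 5 were called lower and 3 higher (13.3% and 9.23% of all tested genes). The 78 mitochondrial ribosomal protein genes summed to 3556 and 3702 CPM, to 2038 and 2327 CPM, and to 1973, 2238 and 1586 CPM in the same order. Of the 72 tested, 2 were called lower and 1 higher (5.28% and 7.77% of all tested genes), with a median of -0.55, close to the -0.56 of the respiratory chain members. With the offsets 12 were called lower and 1 higher (13.3% and 9.23% of all tested genes).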
